A study of Mus musculus with 4 samples.

Results

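Brain endothelial cells line the inner face of the vessels of the brain. Here they were taken from single-cell RNA sequencing of the telencephalon of mice at postnatal day 5, and 149 of the 17623 cells that passed the filters (27742 barcodes in the deposited matrices) were chosen. A cell was kept with 2000 to 40000 UMIs (unique molecular identifiers, which mark captured transcript molecules), at least 1000 genes and at most 10% mitochondrial UMIs. Among these, the chosen cells had at least 5 UMIs of *Cldn5*, at least 2 of *Pecam1* and *Flt1* together, and at most 2 of the pericyte genes *Pdgfrb* and *Kcnj8* together. These 5 genes selected the cells, so that their levels are given as a description. The limits left few cells at the edge. Of the chosen cells, 2 held fewer than 10 UMIs of *Cldn5* (5 UMIs each), 10 held 2 or 3 UMIs of *Pecam1* and *Flt1*, and 7 held 1 or 2 UMIs of *Pdgfrb* and *Kcnj8*. Just outside lay 2 cells with 3 or 4 UMIs of *Cldn5*, 8 cells with at most 1 UMI of *Pecam1* and *Flt1*, and 9 cells with 3 or more UMIs of *Pdgfrb* and *Kcnj8*.

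The endothelium of the brain differs from that of most organs because its cells form the blood-brain barrier. Tight junctions seal the space between neighbouring cells, transporters carry glucose, amino acids, lactate and lipids across the wall, and efflux pumps return drugs to the blood. Wnt ligands from neural cells, read through Frizzled receptors and beta-catenin, switch on this programme, while VEGF and Notch signals shape the growing vessels into tip cells, arteries, capillaries and veins. In the early postnatal brain the vessels are still branching.

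The study compared control mice (NestinCreERT2/tdTomato/Chd8+/+) with mutant mice (NestinCreERT2/tdTomato/Chd8+/F), in which exons 11 to 13 of 1 allele of *Chd8*, a chromatin remodelling gene, are flanked by loxP sites. Both genotypes were of the C57BL/6 strain (C57BL/6 J in the study's methods) and received tamoxifen at embryonic day 14.5, so that a Cre recombinase driven by *Nestin* sequences, which are active in neural progenitor cells, turned on a tdTomato reporter, and cells with the reporter were sorted at postnatal day 5. Each genotype had 2 libraries of the 10x Genomics 3′ chemistry, each pooled from 3 mice. The mice of a library cannot be told apart, p-values measure the spread between libraries, and the labels call the sorted cells neuronal, which the markers of the 149 cells described below go against.

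The numbers of endothelial cells and their depth differed between the libraries. Control replicate 1 held 9 cells with 222759 UMIs in all, control replicate 2 held 19 cells with 317858 UMIs, mutant replicate 1 held 60 cells with 940775 UMIs and mutant replicate 2 held 61 cells with 861963 UMIs. The median cell held 21960, 13403, 13867.5 and 12311 UMIs in the same order, against 11822, 11501, 11484 and 11509 UMIs in the other cells of those libraries. The 9 cells of control replicate 1 were thus few and deep. No barcode of an endothelial cell recurred in another library, while 39 barcodes did so among all cells kept.

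Some libraries and cells stood apart. The matrix headers named Cell Ranger 7.0.0 for both replicate 1 libraries and 5.0.1 for both replicate 2 libraries, so that the version went with the replicate number and not with the genotype. *Xist*, the RNA that coats the silenced X chromosome of female cells, had no UMI in the endothelial cells of the replicate 1 libraries, whereas UMIs of 4 Y-linked genes (*Ddx3y*, *Uty*, *Eif2s3y*, *Kdm5d*) were found without *Xist* in 9 of 9 and 53 of 60 cells. In control replicate 2, 17 of 19 endothelial cells had *Xist* and none had Y-linked UMIs. In mutant replicate 2, 50 of 61 endothelial cells had *Xist*, but 9 cells (14.8%) had Y-linked UMIs and no *Xist*. The same held for 0 of 228 mural cells, 2 of 41 microglia and 17 of the 2951 remaining cells (0.576%) of that library. The study's reporting summary gives male mice for the single-cell samples, which the *Xist* UMIs of both replicate 2 libraries go against. The share of cells, the count of genes and medians of the lists described are given below also without these 9 cells. In control replicate 1, a single cell supplied 221 UMIs of *Plvap*, a gene of fenestrated vessels, together with 3934 haemoglobin UMIs, and another held 130 UMIs of the fibroblast genes *Col1a1*, *Col1a2* and *Dcn* beside 15 of *Cldn5*.

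The promoters of *Cldn5* and *Flt1*, which encode a tight junction strand protein and a VEGF receptor, are shown because the cells were chosen by their transcripts. *Cldn5* lies at chr16:18776847-18778262 on the plus strand and *Flt1* at chr5:147561604-147726011 on the minus strand of GRCm38 (GENCODE vM21). The RefSeq windows (GRCm38.p6) run from 250 bases before to 50 after the start, at chr16:18776597-18776896 and chr5:147725962-147726261. Capitals mark AGGAAG and CGGAAG, forms of the core bound by ETS factors such as ERG and FLI1, which were searched on both strands and do not overlap here.
Cldn5: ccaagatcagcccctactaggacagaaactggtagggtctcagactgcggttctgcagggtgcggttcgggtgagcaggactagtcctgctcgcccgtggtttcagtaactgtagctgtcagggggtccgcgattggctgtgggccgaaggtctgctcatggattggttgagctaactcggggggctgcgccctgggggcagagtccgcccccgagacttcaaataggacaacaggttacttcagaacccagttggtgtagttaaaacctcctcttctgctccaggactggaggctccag
Flt1: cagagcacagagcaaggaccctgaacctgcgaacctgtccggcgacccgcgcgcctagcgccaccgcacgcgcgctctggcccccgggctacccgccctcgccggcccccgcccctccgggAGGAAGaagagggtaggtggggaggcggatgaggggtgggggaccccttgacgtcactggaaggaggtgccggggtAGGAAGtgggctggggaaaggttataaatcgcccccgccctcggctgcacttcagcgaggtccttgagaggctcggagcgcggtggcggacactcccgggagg
The *Flt1* window held 2 matches and the *Cldn5* window none of these letters. A match was found in 12 of 18 windows of the 15 endothelial identity genes with an entry (66.7%) and in 15 of 27 windows of 18 transporter genes (55.6%), against 46.5% of all 32851 windows. The *Kdr* window held none. Neither *Pecam1* nor *Cdh5* had an entry.

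Endothelial cells made up a larger share of the cells in both mutant libraries than in both control libraries. They were 0.158% of the kept cells of control replicate 1 (Clopper-Pearson 95% interval 0.0721 to 0.299) and 0.639% of those of control replicate 2 (0.385 to 0.996). They were 1.06% of the kept cells of mutant replicate 1 (0.810 to 1.36) and 1.86% of those of mutant replicate 2 (1.43 to 2.38). The intervals cover counting error alone, and the 2 control libraries differed from each other beyond it. The mean was 0.398% ± 0.340 in controls and 1.46% ± 0.565 in mutants (SD, n = 2 libraries each), a difference of 1.06 percentage points. The exact two-sided permutation test gave p = 0.333, which is the smallest that 2 libraries against 2 can give. Within the replicate 1 libraries the share was 6.73-fold higher in the mutant, and within the replicate 2 libraries 2.91-fold higher (2.48-fold without the 9 cells with Y-linked UMIs). With a mitochondrial limit of 5%, control replicate 2 (1.22%) lay above mutant replicate 1 (1.12%) and p was 0.667. How endothelial cells passed a sort for the reporter was not tested. *Nes* itself was at 166, 324, 137 and 236 CPM (UMIs per 1e6 UMIs of the chosen cells) in the 4 libraries in the order given above. Mural cells numbered 26, 168, 76 and 228 and microglia 182, 23, 56 and 41 (of 5710, 2973, 5659 and 3281 kept cells), and for both the genotypes overlapped. Within each replicate number the share of mural cells was also higher in the mutant. That of microglia was lower in the mutant of replicate 1 and higher in that of replicate 2.

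**Figure D1:**
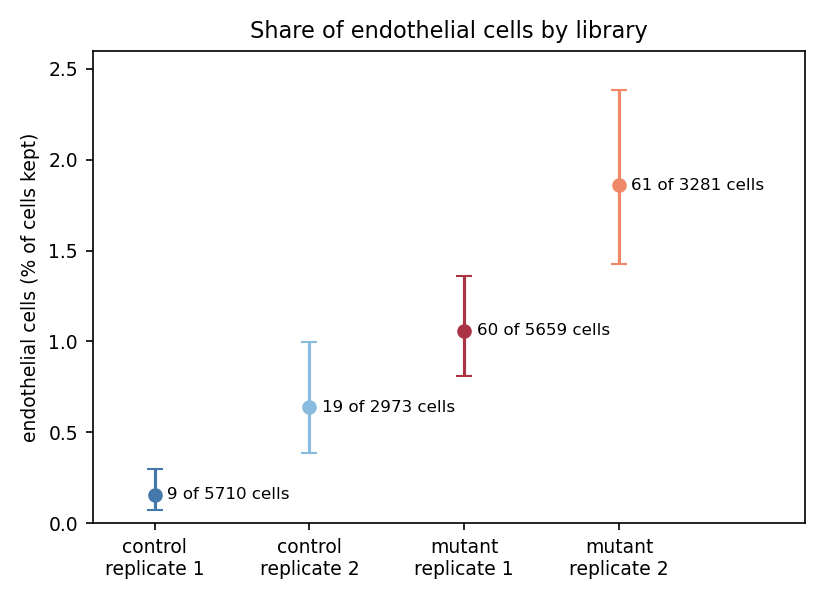
Share of endothelial cells among the cells that passed the filters in each of the 4 libraries (vertical axis, percent), with exact 95% intervals as bars and the numbers of cells beside the points. Both mutant libraries (1.06% and 1.86%) lie above both control libraries (0.158% and 0.639%).

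Endothelial identity genes are described first, as levels. Of 25 such genes, which include the 3 that selected the cells, 25 were higher than in mural cells and 25 higher than in all other cells in 4 of 4 libraries, where 26.5% and 30.8% of all 7396 genes with enough counts were. The rule used these contrasts, and nothing is read from the counts. *Cldn5* was at 4458, 6305, 5249.9 and 6992 CPM in control replicates 1 and 2 and mutant replicates 1 and 2, a log2 difference of 9.90 ± 1.27 (SD, n = 4 libraries, on log2(CPM + 1)) over all other cells. *Flt1* was at 1266, 1617, 1691 and 1446 CPM. *Pecam1*, an adhesion molecule of endothelial junctions, was at 602, 626, 453 and 399 CPM. Each of these 3 genes was found in nearly every chosen cell, *Pecam1* in 143 and *Flt1* in 147 of 149. *Cldn5* was found in 9 of 228 mural cells, 1 of 41 microglia and 78 of the 2951 remaining cells of mutant replicate 2 (median depths 10510.5, 7840 and 11720.0 UMIs).

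Genes that the rule did not use had the same pattern. *Cdh5*, the cadherin of endothelial junctions, was at 673, 503, 444 and 360 CPM in the 4 libraries, and at 5.96 CPM over mural cells and 1.75 CPM over all other cells. *Kdr*, the main VEGF receptor of vessels, was at 1145, 1381, 829 and 1218 CPM, against 4.21 CPM in mural cells and 2.77 CPM in the others. *Adgrl4*, an adhesion receptor of endothelium, was at 485, 717, 737 and 499 CPM, against 0.175 CPM in mural cells. By size of the difference to mural cells, *Cldn5* was followed by *Ctla2a*, the amino acid transporter gene *Slc38a5*, *Pglyrp1* and *Adgrl4*, all of which also led the difference to all other cells. *Ctla2a* was the steadiest of these, at 1724, 1576, 1585 and 1781 CPM.

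The most abundant transcripts were shared with other cells in part. Beside *Tmsb4x* (17299 CPM over all chosen cells) and *Fth1*, which encodes ferritin heavy chain (10588 CPM), *Bsg* stood out, the gene of basigin, which escorts lactate transporters to the membrane. It was at 9059, 8133, 11505 and 10352 CPM, against 356 CPM in mural cells and 401 CPM in all others. The matrix protein gene *Sparc* was at 4975 CPM, against 3036 CPM in mural cells. *Gm42418*, a locus that overlaps ribosomal RNA sequence, reached 58337 CPM in control replicate 2 and 14092 to 18793 CPM in the other libraries. These levels are UMI counts of transcript 3′ ends and were not divided by transcript length.

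Endothelial transcription factors were present as a set. Of 23, 22 were higher than in all other cells and 20 higher than in mural cells in 4 of 4 libraries. Of all 7396 genes, 30.8% and 26.5% were. *Erg*, *Fli1* and *Ets1* of the ETS family were at 202, 406 and 596 CPM over all chosen cells, *Ets1* also being at 410 CPM in mural cells. *Sox17* was at 130, 154, 204 and 130 CPM, and *Foxq1*, a gene of brain endothelium, at 350.2, 409, 534 and 611 CPM. *Sox18* was uneven, at 467, 75.5, 416 and 193 CPM, and *Mecom*, which marks arterial endothelium, was at 319, 217, 818 and 138 CPM. Both had their higher values in the replicate 1 libraries. *Foxc1*, *Epas1* and *Nr2f2* were the 3 genes that did not exceed mural cells in every library, and *Nr2f2*, a venous regulator at 84.5 CPM, was at 494 CPM in mural cells.

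**Figure D2:**
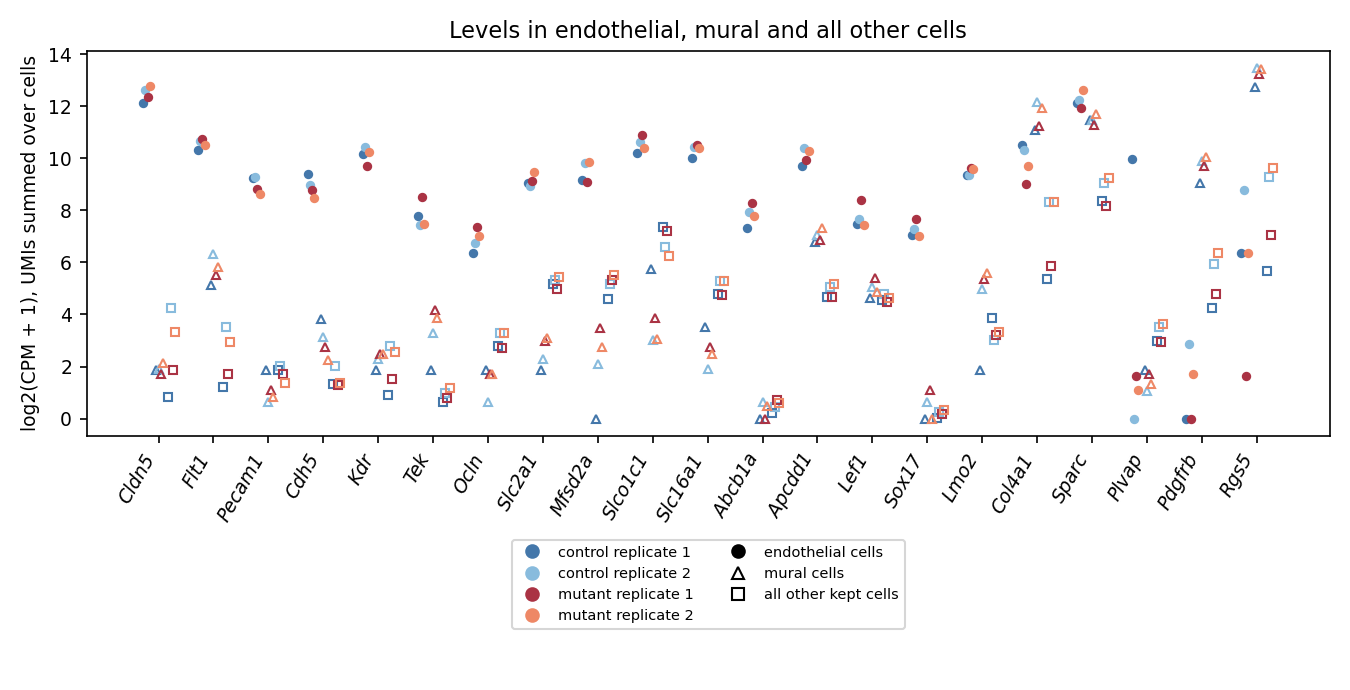
Levels of 21 genes (log2(CPM + 1), vertical axis) in the endothelial cells (filled circles), mural cells (triangles) and all other kept cells (squares) of the 4 libraries (colours). The barrier genes sit far above both other groups in every library, *Col4a1* and *Rgs5* are higher in mural cells, and *Plvap* is high in control replicate 1 alone.

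Barrier genes were at high levels in all 4 libraries. Of 23 transporters and efflux pumps, 23 were higher than in mural cells and 23 higher than in all other cells in 4 of 4 libraries. Of all 7396 genes, 26.5% and 30.8% were. Of the 23, 20 reached 100 CPM. *Slc2a1*, the glucose transporter of the barrier, was at 525, 488, 553 and 718 CPM. *Mfsd2a*, which carries lipids and holds back vesicle traffic, was at 570.1, 903, 538 and 925 CPM, and *Slco1c1*, the thyroid hormone transporter, at 1181, 1595, 1889.9 and 1350.4 CPM. *Slc16a1*, the lactate transporter, and *Slc7a5*, the large amino acid transporter, were at 1375 and 1227 CPM over all chosen cells. The efflux pump genes *Abcb1a* and *Abcg2* were at 253 and 245 CPM. *Tfrc*, the transferrin receptor, was at 1856 CPM in control replicate 2 and 714 to 1033 CPM in the others.

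Of 15 tight junction genes, 9 reached 100 CPM and *Cgn* and *Cldn3* had no UMI in the 149 cells. *Ocln* was at 80.8, 107, 165 and 130 CPM and *Lsr*, a protein of junctions between 3 cells, at 274, 236, 298 and 283 CPM, while *Cldn1* had 0.853 CPM and *Cldn12* 4.69 CPM. Levels of the Wnt pathway were led by its target *Apcdd1*, at 839, 1337, 977 and 1240.2 CPM. *Lef1* was at 175, 204, 334 and 173 CPM and the receptor gene *Fzd4* at 40.4, 69.2, 51.0 and 91.7 CPM. Other targets were not as distinct. *Axin2* was at 32.9 CPM, below the 105 CPM of mural cells and near the 29.0 CPM of the others. Of the caveolar genes, *Cav1* was at 260, 116, 157 and 173 CPM. *Plvap* was at 992 CPM in control replicate 1 and at 0, 2.13 and 1.16 CPM in the other libraries, and 221 of its UMIs lay in the single cell named above.

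The cells varied in the genes that mark positions along the vessel, and Spearman correlations over the 149 cells describe this (the cells share libraries and depth, and genes in both lists were left out). The summed level of transporters went with that of capillary genes (rho = 0.67). The arterial list went against the venous list (rho = -0.29), but rose with the capillary list (rho = 0.28) and the transporters (rho = 0.36). *Apln*, the gene of apelin and a marker of tip cells, was found in 82 cells, and 44 cells had 5 or more UMIs (6, 8, 14 and 16 by library, limits here being set after the values were seen). In these 44 cells *Angpt2*, which loosens vessels, was at 164 CPM against 9.44 CPM in the other 105, and *Mcam* at 130 CPM against 39.1 CPM. Both groups had the barrier genes, *Mfsd2a* at 796 and 696 CPM. The tip group was deeper, at a median of 17314 against 11555 UMIs.

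Cells with UMIs of the arterial genes *Bmx*, *Gkn3* or *Gja5* were few. There were 6, 5 of mutant replicate 1 and 1 of mutant replicate 2, where 121 of all 149 cells were of mutant libraries. In them *Gja4*, an arterial connexin gene, was at 834 CPM against 68.3 CPM in the other 143 cells, *Fbln2* at 628 against 17.7 CPM and *Ly6a* at 1017 against 117 CPM. The capillary genes *Mfsd2a* and *Spock2* were at 80.0 against 758 CPM and at 251 against 2181 CPM, and the venous gene *Slc38a5* was at 0 against 938 CPM. A cell without UMIs of the 3 genes may still be arterial. In a single cell of control replicate 2 the arterial list summed to 7528 CPM, where the median over the 149 cells was 324 CPM. Unlike the 6 cells, it was also high for the capillary list, at 22389.5 CPM against a median of 9594 CPM. *Cxcl12* is in both lists. *Ackr1*, a gene of venules, had UMIs in 9 cells, 1 of mutant replicate 1 and 8 of mutant replicate 2. *Mki67* and *Top2a*, genes of dividing cells, summed to 3 or more UMIs in 18 cells (0, 5, 5 and 8 by library). With each cell thinned to 2000 UMIs, 14 cells had at least 1 (0, 4, 4 and 6). None of the 9 cells of control replicate 1 was in the dividing or arterial groups, and with 9 cells a share of 11.1% is a single cell.

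**Figure D3:**
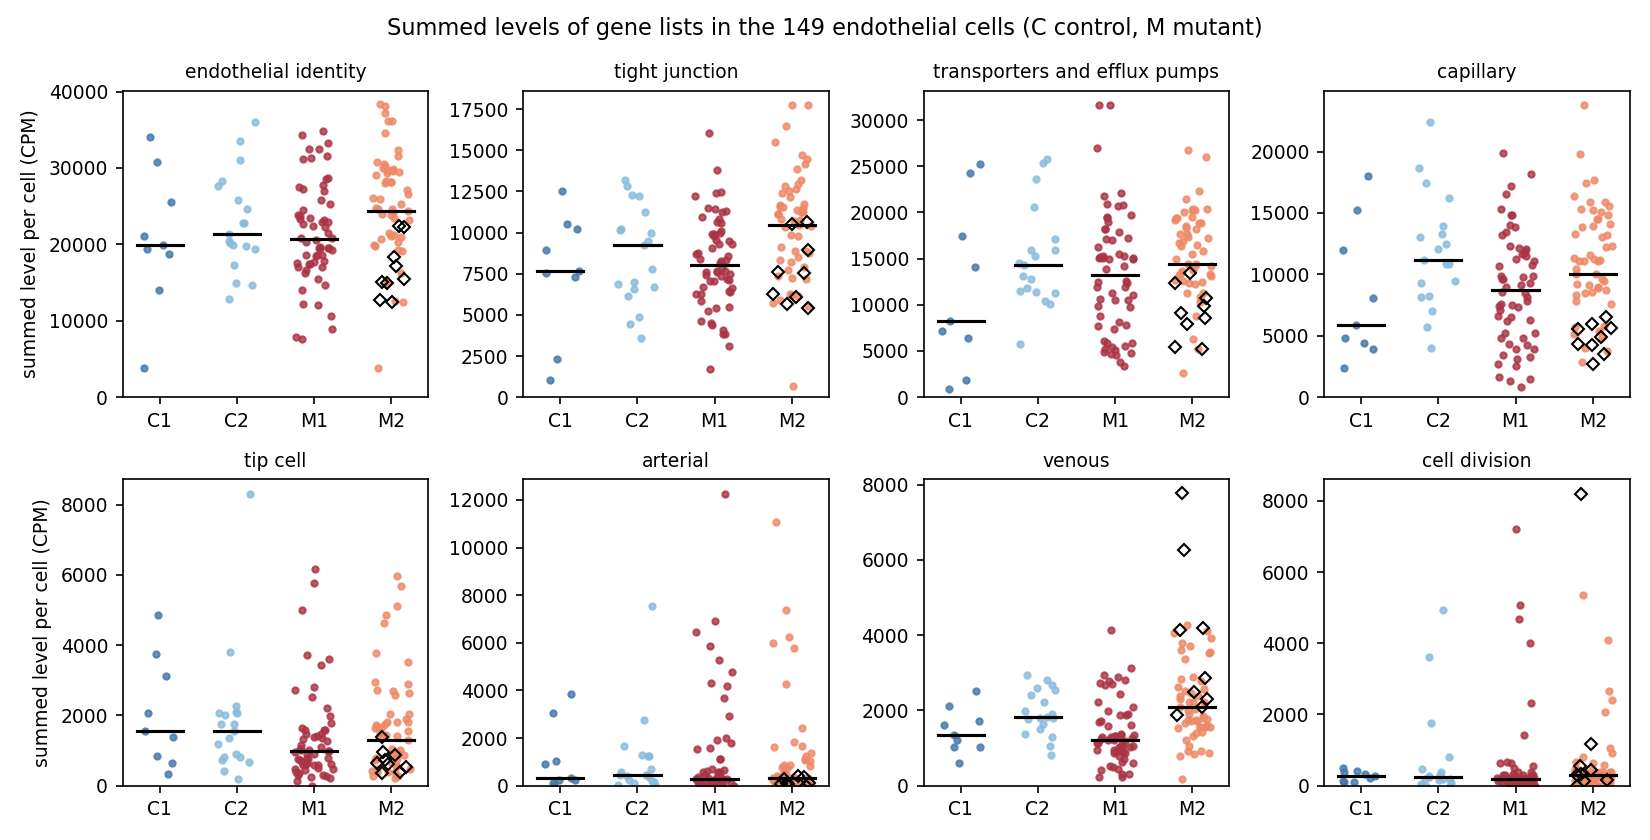
Summed level of 8 gene lists in each of the 149 cells (vertical axes, CPM), by library (C1 and C2 control, M1 and M2 mutant replicates 1 and 2), with the median as a line. Open diamonds are the 9 cells of mutant replicate 2 with Y-linked UMIs and no *Xist*, which lie low for capillary genes and include the highest values for venous genes.

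The 9 cells of mutant replicate 2 with Y-linked UMIs and no *Xist* differed from the other 52 cells of that library in vessel genes. They held 19 Y-linked UMIs in all, 1 to 3 in each. *Cldn5* was at 5368 CPM in them and 7280 CPM in the other 52 cells. Of 16 venous genes, 7 were higher and 7 lower in them. *Ackr1* was at 108 against 8.19 CPM (5 of 9 cells against 3 of 52), *Aplnr* at 825 against 269 CPM and *Slc38a5* at 1651 against 1169 CPM. *Vwf* was at 100.3 against 388 CPM and *Flt4* at 23.1 against 111 CPM. Of all 369 listed genes, 97 were higher and 232 lower in the 9 cells. All 10 capillary genes were lower, among them *Spock2* at 895 against 2488 CPM and *Mfsd2a* at 285 against 1038 CPM, as was the transporter gene *Slco1c1* at 247 against 1546 CPM. Of 15 tip cell genes, 12 were lower, with *Apln* at 30.9 against 371 CPM. *Flt1*, which helped to choose the cells, was at 332 against 1643 CPM. Of 18 cell division genes, 15 were higher, with *Cdk1* at 255 against 72.4 CPM (6 of 9 cells against 22 of 52). A single cell weighed on these values. Its cell division genes summed to 8208 CPM, and those of the rest of the 9 cells to between 0 and 1161 CPM. *Mki67* had UMIs in 1 of 9 cells against 9 of 52. Of 17 immediate early and heat shock genes, 10 were higher and 7 lower. The heat shock genes *Hspa1a* and *Hspa1b* were at 324 against 34.1 CPM and at 532 against 66.9 CPM (8 of 9 cells against 16 of 52 for *Hspa1b*), and *Jun* was at 478 against 240.3 CPM, while *Egr1* was at 0 against 24.6 CPM and *Atf3* at 7.71 against 31.4 CPM. The median mitochondrial share was 5.24% in the 9 cells and 3.58% in the others. Their median depth was 15717 UMIs, above the 12041 UMIs of the others. No test was run, since cells of 1 library are not replicates.

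**Figure D4:**
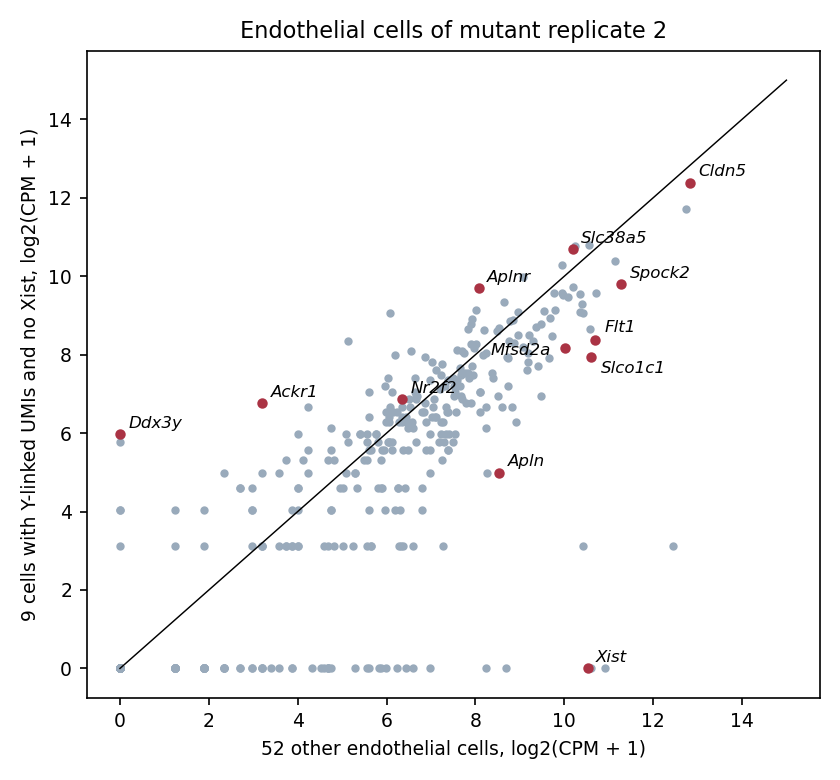
Levels of the 369 listed genes (log2(CPM + 1)) in the 9 cells of mutant replicate 2 with Y-linked UMIs and no *Xist* (vertical axis) against the other 52 endothelial cells of that library (horizontal axis), with the line of equal levels. *Ackr1* and *Aplnr* lie above the line and *Spock2*, *Flt1*, *Mfsd2a*, *Slco1c1* and *Apln* below it.

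Markers of other cell types differed in level between the libraries, and haemoglobin genes were high in 3 of them. The 13 mural markers summed to 162, 554, 11.7 and 142 CPM in the endothelial cells of the 4 libraries, against 22333 CPM in mural cells, led by *Rgs5* (98.1 CPM over all chosen cells), with *Myh11* at 0. They had no UMI in 109 of the 149 cells. Single cells held 3216 and 4019 CPM in control replicate 2 and 8630 and 5423 CPM in mutant replicate 2. The microglial markers *P2ry12*, *C1qb* and *C1qc* had no UMI in the 149 cells. The 14 neuronal markers summed to 130, 72.4, 436 and 355 CPM, against 2824 CPM in all other cells, led by *Sox11*, and the 10 astrocyte markers to 557, 554, 360 and 733 CPM, led by *Fabp7*. The 8 fibroblast markers summed to 642, 9.44, 23.4 and 55.7 CPM, against 323 CPM in all other cells. The 5 haemoglobin and erythroid genes summed to 17669, 6.29, 15688 and 8895 CPM, against 142 CPM in all other cells. At least 20 of their UMIs were found in 6 endothelial cells (1, 0, 4 and 1) and in 16 cells of the 17623 in all, and they made up as much as 32.4% of 1 cell. In the 3 cells with over 5000 such UMIs, *Cldn5* had 166, 109 and 80 UMIs.

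*Chd8* was measured at low depth in the endothelial cells. It lies at chr14:52198151-52257780 on the minus strand of GRCm38. Its level was 26.9, 56.6, 37.2 and 67.3 CPM in control replicates 1 and 2 and mutant replicates 1 and 2, from 6, 18, 35 and 58 UMIs, so that the genotypes overlapped. The log2 change (mutant over control) was 0.21 ± 0.50 (SE), with an adjusted p of 0.9999 (edgeR quasi-likelihood test on summed counts, 2 libraries per genotype, Benjamini-Hochberg). The kit counts transcript 3′ ends, outside exons 11 to 13, and the Cre is driven in neural progenitors, so the level is no check of the genotype labels.

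No gene differed between genotypes in endothelial cells at an adjusted p under 0.05. Of 7396 genes tested (0% called), 141 had an unadjusted p under 0.05 (1.91%), 90 higher in mutants (1.22%) and 51 lower (0.69%), and DESeq2 called 0 genes at an adjusted p under 0.05 and 98 at an unadjusted p under 0.05. The changes below are therefore values that did not pass the test, for the 6 genes in each direction with the largest change among those with an unadjusted p under 0.05 and the same sign in both replicates, and for members of the lists. The median log2 change over all genes was -0.01. With no filter on low counts, edgeR called 77 of 16292 genes at an adjusted p under 0.05. The count also moved as each library was left out, which leaves 1 library in a genotype, so no count is given for those fits. Without the 9 cells with Y-linked UMIs, 0 genes passed the adjustment and 157 had an unadjusted p under 0.05.

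Of the 6 largest increases among these genes, 5 were of neuronal genes, whose UMIs lay in large part in few cells. *Rtn1*, a reticulon gene of neurons and the gene with the lowest p, was at 4.49, 3.15, 91.4 and 101 CPM in the order above, a log2 change of 3.77 ± 0.47 (adjusted p = 0.517). It was found in 43 cells, and a single cell held 41 of its UMIs in mutant replicate 1 and another 44 in mutant replicate 2. *Neurod1* had no UMI in either control and 35.1 and 39.4 CPM in the mutants, at least 6.70-fold higher (against a floor of 3 counts over the controls), with 34 of 67 UMIs in 1 cell of mutant replicate 2. *Calb2* likewise had none in controls, was at least 4.70-fold higher and rested on 5 cells. *Gria2* had 2 UMIs in controls and 114 in mutants, and *Tubb3* 1 and 82, ratios of 17.1 (95% counting interval 4.62 to 143) and 24.6 (4.29 to 983) per UMI. Such intervals treat each UMI as independent and leave out the spread between cells and libraries. A single cell held 34 of the 83 *Tubb3* UMIs and a single cell 28 of the 116 *Gria2* UMIs. Of 14 neuronal markers, the 6 with enough counts to be tested were all higher in mutants (49.1% of all genes were). Genes near 0 in the controls, such as *Neurod1* and *Tubb3*, passed the count filter through the mutant libraries. The count of 6 is therefore a description alone. Cells with 10 or more UMIs of the neuronal markers, *Rtn1*, *Gria2* and *Calb2* numbered 1, 0, 8 and 5, and without them the summed level of these genes was 99.4, 81.8, 116 and 128 CPM in place of 135, 81.8, 588 and 577 CPM. The cells left out were picked by these same genes, so a fall was built in, and it only describes where the UMIs lay. *Ccdc152* was at 0, 3.15, 63.8 and 78.9 CPM, found in 49 cells, with a ratio of 38.4 (6.77 to 1528) from 1 UMI in controls. Its 3′ end overlaps that of the selenoprotein gene *Selenop* on the other strand, which is abundant here (2518 UMIs in mutants and 527 in controls). Per UMI, *Selenop* was at 1397 CPM in mutants and 975 CPM in controls, a ratio of 1.43. The strand setting of the counting is not given in the sources used here, and what part *Selenop* had in the *Ccdc152* counts was not tested.

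The largest decreases among these genes also rested in part on few cells. *Igf2*, a growth factor gene of vessels and meninges, was at 121, 69.2, 0 and 13.9 CPM and was found in 6 cells, 24 of its 49 control UMIs in 1 cell of control replicate 1. *Abcc9*, a pericyte gene, had 15 UMIs in controls and 1 in mutants, in 4 cells, and moved with the mural markers given above. *Lgals1* and *F2r*, the thrombin receptor gene, had 14 and 15 UMIs in controls and 7 and 10 in mutants. *Icam1*, which encodes the adhesion molecule that leukocytes bind, had at most 13 UMIs in any cell. It was at 112, 148, 30.8 and 30.2 CPM in the order above, in 45 cells, so that both controls lay above both mutants. Its log2 change was -2.03 ± 0.35 (adjusted p = 0.9999), -1.77 in the replicate 1 libraries and -2.24 in the replicate 2 libraries.

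Immediate early genes respond to stress and tissue handling within minutes, and no member passed the adjusted test between genotypes. Of 17 immediate early and heat shock genes tested, 16 had a log2 change below 0 (50.9% of all genes did), their median was -0.61 (-0.81 without the 9 cells with Y-linked UMIs), 5 were lower at an unadjusted p under 0.05 and 8 had both mutants below both controls (10.9% of all genes did). Few cells carried much of the list. It summed to 15698, 11140 and 10917 CPM in single cells of control replicate 2 and to at most 3902 CPM in the rest of that library's cells. Single cells of mutant replicates 1 and 2 reached 22899 and 17551 CPM. *Dusp1*, a phosphatase gene, was at 224, 239, 85.0 and 65.0 CPM, a log2 change of -1.63 ± 0.32. *Fos* was at 283, 406, 175 and 67.3 CPM (-1.54 ± 0.48) and *Junb* at 386, 720.4, 300 and 144 CPM (-1.37 ± 0.47). *Fos* was found in 7, 5, 17 and 14 cells by library. In control replicate 2, a single cell held 55 of the 129 *Fos* UMIs and a single cell 118 of the 229 *Junb* UMIs. In mutant replicate 2, a single cell held 36 of 58 and a single cell 36 of 124. *Egr1* (-1.69 ± 0.62) and *Ier3* (-1.69 ± 0.39) completed the 5. With no filter on low counts, *Egr1*, *Dusp1* and *Fos* had adjusted p of 0.0187, 0.0194 and 0.0262 in edgeR, and the highest adjusted p over the alternatives was 0.99996 for each. The change of *Fos* was -0.70 in the replicate 1 libraries and -2.60 in the replicate 2 libraries, that of *Junb* -0.38 and -2.37, and that of *Egr1* -0.56 and -3.27. In all other cells of the same libraries, *Fos* was at 640, 701, 545 and 650.0 CPM and *Junb* at 169, 139, 130.0 and 148 CPM, and for both the genotypes overlapped. *Egr1* was at 316, 361, 283 and 313 CPM and *Ier3* at 39.7, 28.0, 19.6 and 25.7 CPM there, both mutants again below both controls. What part the handling of each library had was not tested.

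Basement membrane genes encode the matrix sheet around the vessel, and none passed the adjusted test. Of 14 tested, 13 had a log2 change below 0 (50.9% of all genes did), with a median of -0.41 (-0.45 without the 9 cells with Y-linked UMIs), and 4 were lower at an unadjusted p under 0.05 (0.69% of all genes were). Summed over the list, their level was 12299 CPM in mural cells and 9983 CPM in endothelial cells, and the mural markers, given above, were also lower in the mutant of each replicate. The part of mural RNA in these values was not tested. *Col4a1* and *Col4a2*, paired collagen genes that share a promoter, were at 1454, 1293, 522 and 832 CPM and at 979, 1183, 440.1 and 766 CPM, log2 changes of -1.06 ± 0.35 and -0.89 ± 0.37. The cell of control replicate 1 with *Plvap* held 197 of the 324 *Col4a1* UMIs of its library. Without the 2 cells of that library named above, the change of *Col4a1* was -0.64, that of *Col4a2* -0.52 and that of *Hspg2*, which encodes perlecan, -0.65 in place of -1.35, and the unadjusted p of each exceeded 0.05. The list median was -0.407 without them and -0.414 with them. *Nid2* (144, 129, 65.9 and 82.4 CPM) kept a change of -0.85 beside -0.89.

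Of the genes that mark vessel position, none passed the adjusted test. The median log2 changes of the capillary and venous lists were 0.01 and -0.06 (0.11 and -0.12 without the 9 cells with Y-linked UMIs). Of 13 tip cell genes tested, 6 had both mutants below both controls (10.9% of all genes did) and *Cxcr4* had both above. Among the 6 were *Apln* (350.2, 579, 220.0 and 320 CPM), *Pdgfb*, which recruits pericytes (314, 484, 256 and 311 CPM), and *Mcam* (log2 change -1.22 ± 0.35). The list median was -0.54, -0.33 without the 2 cells of control replicate 1 and -0.47 without the 9 cells with Y-linked UMIs. *Nrp2*, a co-receptor of VEGF, was at 117, 120, 57.4 and 76.6 CPM (-0.83 ± 0.34). Of 17 arterial genes, 11 had enough counts to be tested. Both mutants lay above both controls for 6 of them (15.4% of all genes), which were *Gja4*, *Unc5b*, *Cxcl12*, *Stmn2*, *Vegfc* and *Fbln5*. With 7 and 3 UMIs in controls, *Vegfc* and *Fbln5* passed the count filter through the mutant libraries. The arterial count and median are therefore a description alone. *Stmn2* is also one of the neuronal markers, which summed to more in the mutants as given above. The largest changes were of *Vegfc*, a growth factor gene (22.4, 6.29, 67.0 and 47.6 CPM, a log2 change of 1.82 ± 0.54) and *Fbln5*, an elastic fibre gene (13.5, 0, 71.2 and 22.04 CPM, 2.41 ± 0.90). *Vegfc* was found in 27 cells, 1 of which held 31 of its 63 UMIs in mutant replicate 1, and *Fbln5* in 19 cells. A single cell held 64 of the 185 UMIs of *Ly6a* in mutant replicate 1. The list median was 0.48, 0.96 without those 2 cells and 0.60 without the 9 cells. The surface marker genes *Ly6c1* (301, 239, 530.4 and 419 CPM, a log2 change of 0.77 ± 0.31) and *Ly6a* (62.8, 94.4, 197 and 145 CPM, 1.02 ± 0.37) were the 2 of 25 identity genes with an unadjusted p under 0.05.

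In the barrier lists, 17 of 23 transporters, 7 of 9 tight junction genes and 12 of 17 Wnt pathway genes tested were higher in mutants (49.1% of all genes were). The tight junction list includes *Cldn5*, which selected the cells, so its count and median are a description alone. Both mutants lay above both controls for 5 transporters (15.4% of all genes) and below for 0. None of the 23 transporters, 9 tight junction genes and 17 Wnt pathway genes had an unadjusted p under 0.05, and their median log2 changes were 0.15, 0.08 and 0.15 (0.01, -0.04 and 0.04 without the 2 cells of control replicate 1, and 0.20, 0.12 and 0.17 without the 9 cells with Y-linked UMIs). Of 9 genes tested among *Nes* and the CHD family, *Chd7* was at 53.9, 25.2, 78.7 and 85.9 CPM (log2 change 0.999 ± 0.42), the lone one with an unadjusted p under 0.05. Cell division genes had a median of 0.07 with and without those 9 cells, and 0 of 16 with an unadjusted p under 0.05. A p above the threshold does not show that levels were alike, and control replicate 1 rests on 9 cells.

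**Figure D5:**
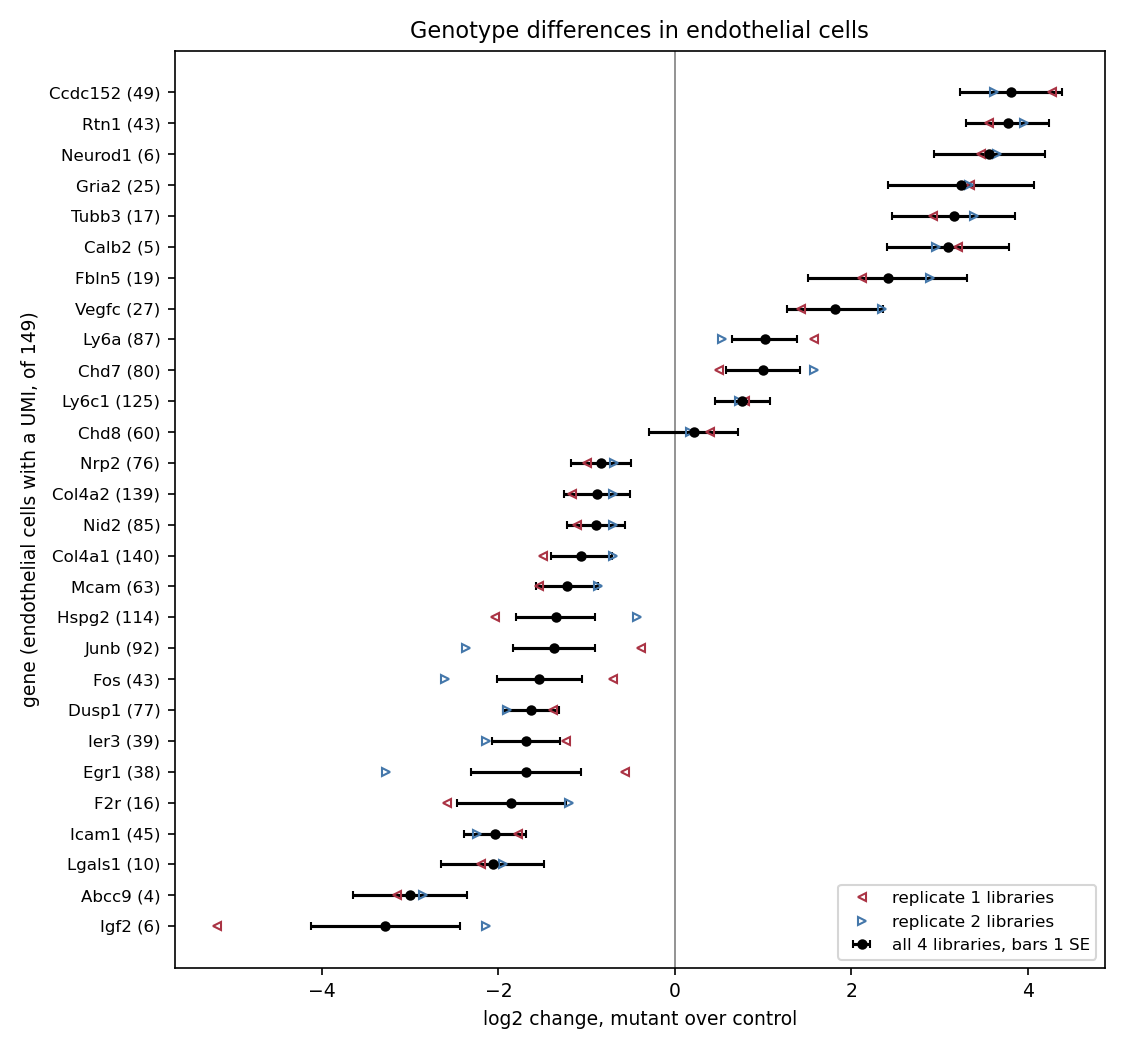
Log2 change (mutant over control, horizontal axis) of 28 genes in endothelial cells over all 4 libraries (black, bars 1 SE) and within the replicate 1 and replicate 2 libraries (triangles), with the number of the 149 cells that had a UMI in brackets. None passed an adjusted p of 0.05, and several of the largest changes rest on few cells.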

How the data were processed

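Single-cell libraries of sorted telencephalic cells (2 control, 2 mutant, each pooled from 3 mice) were grouped by their labels. The authors mapped reads to mm10 with Cell Ranger (3.0 in the submitters' processing notes, 7.0.0 or 5.0.1 in the file headers). They deposited raw UMI counts per gene and barcode, without normalization. The matrices held 6107 to 7279 barcodes per library, to which the limits on UMIs, genes and mitochondrial share had not been applied. Cells were filtered and chosen by the limits given in the report. Mural cells had at least 5 UMIs of *Pdgfrb* and *Kcnj8*, at least 2 of *Rgs5* and *Vtn* and at most 1 of *Cldn5*. Microglia had at least 5 of *Cx3cr1* and *P2ry12* and at least 2 of *C1qa* and *C1qb*. No doublet caller was run. Replicate numbers were not stated to pair the libraries.

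Counts of the chosen cells were summed per library, and genes with low counts were removed by filterByExpr. Genotypes were compared in edgeR 4.0.16 (R 4.3.3) by quasi-likelihood, after TMM scaling and with no covariate, a prior count of 2 and Benjamini-Hochberg adjustment over all genes tested. Alternatives were DESeq2 1.42.0, other scalings and filters, a replicate block, other cell limits and each library left out. Where a leave-out left 1 library of a genotype, it was assumed to vary like the others. Named genes were members of 30 lists, the 20 highest genes, the 10 largest differences to mural and to other cells, and the 6 largest changes per direction. The cells, lists and rule were chosen with earlier results of these data known. The reporter transcript was not analysed here.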

Additional observations from a re-analysis of the deposited data

Results flagged for a closer look

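Of the 10119 barcodes outside the filters, 40 met the 3 marker limits for endothelial cells and entered no comparison, which is why they are named here. They numbered 5 and 7 in control replicates 1 and 2 and 12 and 16 in mutant replicates 1 and 2. Of these, 26 held over 40000 UMIs, 5 under 2000, and 9 over 10% mitochondrial UMIs.

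In mutant replicate 2, 9 of 61 endothelial cells had Y-linked UMIs and no *Xist*, in a library where 50 of the 61 had *Xist*. The control library of the same replicate number had 0 of 19. The study's reporting summary gives male mice for these samples. The reason was not tested.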

How the results depend on the processing

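The difference in the share of endothelial cells kept its direction under all 14 alternatives, from 0.662 to 1.46 percentage points as each library was left out, and no p could pass 0.05. Chosen after seeing the data were the fits without the 9 cells of mutant replicate 2 (0.924) and without the 2 cells of control replicate 1 (1.08), and the share without cells rich in other markers (1.04). The count of genes at an adjusted p under 0.05 was 0 in edgeR and moved to 77 with no filter on low counts, 4 without the 2 cells of control replicate 1 (haemoglobin genes) and 0 to 42 as each library was left out (3 without control replicate 1, 8 without control replicate 2 and 42 without mutant replicate 2). The count at an unadjusted p under 0.05 was 141, and moved to 588 with no filter, 70 with at least 10 counts in every library, 254 with the replicate block and 105 to 334 as each library was left out. Under the replicate block 0 genes passed the adjustment, and same-numbered libraries deviated together (r = 0.35 across 3618 genes, which are not independent), with 2 pairs and no label that states a pairing. The log2 change of *Chd8* ranged from -0.24 to 0.87 as each library was left out, below 0 without control replicate 1 (-0.18) or mutant replicate 2 (-0.24), and could not be fitted with at least 10 counts in every library. As each library was left out, the log2 change ranged from 1.58 to 4.13 for *Fbln5*, -1.95 to -0.81 for *Junb*, -2.87 to -1.03 for *Egr1*, -2.31 to -1.02 for *Fos*, -1.87 to -0.57 for *Hspg2*, -1.34 to -0.52 for *Col4a2* and 0.57 to 1.54 for *Chd7*. No other gene of the plot of genotype changes turned direction where an alternative tested it. With no filter on low counts, *Ccdc152*, *Rtn1*, *Neurod1*, *Gria2*, *Tubb3*, *Calb2*, *Igf2*, *Abcc9*, *Icam1*, *Egr1*, *Dusp1*, *Fbln5* and *Fos* passed the adjustment, as did *Rtn1*, *Igf2* and *Icam1* without mutant replicate 2. The causes of these shifts were not tested, apart from the haemoglobin genes, whose control UMIs lay nearly all in 1 removed cell. Depth limits control replicate 1 most, with 9 cells and 222759 UMIs.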

Other observations

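Signalling genes of the endothelial cells that the report does not describe are given here as levels. Of 17 BMP and TGF-beta pathway genes, *Eng*, the gene of endoglin, led at 516, 673, 410 and 672 CPM in control replicates 1 and 2 and mutant replicates 1 and 2, and *Smad9* had no UMI. Of 13 Notch pathway genes, *Notch1* led at 210 CPM over all chosen cells and *Heyl* had no UMI. *Dll4*, the Notch ligand of tip cells, was at 108, 88.1, 92.5 and 132 CPM, against 5.96 CPM in mural cells. *Vegfa*, the ligand of the VEGF receptors, was at 2.56 CPM, against 60.6 CPM in all other cells. *Edn1*, which encodes endothelin, was at 76.3, 220.2, 85.0 and 153 CPM, against 0.351 CPM in mural cells. The adhesion genes *Selp* and *Sele* of activated veins had no UMI in the 149 cells.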
